A study of Mus musculus with 8 samples.

Results

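The genes described here are *Ly6a*, *Ly6c1*, *Ly6c2* and *Ly6e*, 4 of the 23284 genes with FPKM values in this RNA sequencing series of mouse CD4 T cells. They were chosen by symbol as members of the Ly6 family of surface antigens, with earlier results of these data known. Each has 1 entry in every library. FPKM counts the fragments sequenced from a gene relative to the length of its exons and to the depth of the library. The series has 4 groups of 2 libraries, all from DO11.10 Tg mice, which carry a transgenic TCR specific for an OVA peptide, and no group lacks the transgene. Naive cells were sorted from the spleen as CD4+ cells of naive surface phenotype, CD44low among its markers, and were not cultured. Th1, Th2 and Th17 effector cells were grown from such cells for 6 days with OVA peptide and irradiated, T cell-depleted BALB/c splenocytes. For Th1 cells, IL-12 (100 U/ml), an antibody to IL-4 (1 µg/ml) and IL-2 (30 U/ml) were added. For Th2 cells, IL-4 (100 U/ml), an antibody to IFNγ (10 µg/ml) and IL-2 (30 U/ml) were added. For Th17 cells, IL-1β, IL-6 and IL-23 (10 ng/ml of each) were added with the antibodies to IL-4 and IFNγ (10 µg/ml of each). Naive and effector cells thus differ in culture, peptide stimulation and cytokines together, whose parts in a difference cannot be told apart. The mice were 6 to 12 weeks old, their sex is not given in the sources used here, and nothing says that the replicates came from separate mice or cultures, so the p-values measure only the spread between these libraries.

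Ly6 proteins are small, cysteine-rich proteins held on the cell surface by a glycosylphosphatidylinositol (GPI) lipid anchor. *Ly6a* encodes Sca-1, known as a marker of hematopoietic stem cells and of activated lymphocytes. *Ly6c1* and *Ly6c2* encode the close paralogs detected together as Ly6C, an antigen of monocytes and of antigen-experienced T cells, and *Ly6e* encodes thymic shared antigen 1. Transcription of several family members is known to be induced by interferons. The Ly6 antigens have allelic forms that differ between BALB/c and C57BL/6 mice, and the mm10 genome to which the authors aligned the reads is that of C57BL/6J. The effect of the mouse strain on the mapping of reads was not tested.

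All 4 genes lie on chromosome 15 of mm10, within 156.9 kb of each other. *Ly6e* is at chr15:74955051-74959905, *Ly6a* at chr15:74994877-74997888, *Ly6c1* at chr15:75044018-75048837 and *Ly6c2* at chr15:75108161-75111949. Over their coding sequences in the GENCODE vM21 annotation, *Ly6c1* and *Ly6c2* were identical at 387 of 396 bases (97.7%). Both were about as similar to *Ly6a* (82.0% and 81.7%), whereas *Ly6e* shared only 49.9% to 52.6% of aligned bases with the other 3 genes. Since the reads were 50 bases long, the longest stretch of coding sequence without a difference between *Ly6c1* and *Ly6c2*, 188 bases from base 66 to base 253 of both, is shown because a read inside it cannot be assigned to either gene by its letters.
Ly6c1 and Ly6c2: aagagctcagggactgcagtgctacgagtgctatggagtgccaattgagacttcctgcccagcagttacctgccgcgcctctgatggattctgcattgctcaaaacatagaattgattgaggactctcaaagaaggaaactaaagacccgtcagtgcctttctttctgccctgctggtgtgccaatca
The 60 bases with the most differences, bases 6 to 65 of both coding sequences, hold 6, which are in capitals, and are shown as the stretch where reads can be told apart.
Ly6c1: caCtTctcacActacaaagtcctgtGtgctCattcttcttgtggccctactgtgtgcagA
Ly6c2: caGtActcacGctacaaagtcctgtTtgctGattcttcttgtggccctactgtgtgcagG
The different 50-base words in the protein-coding transcripts of each member were looked up in all annotated transcripts of other genes, on both strands. Of the words of *Ly6c2*, 30.8% also occur in *Ly6c1*, and 21.5% of the words of *Ly6c1* occur in *Ly6c2*. *Ly6a* shared 15.03% of its words with *Ly6c1*, and *Ly6e* shared no word with any other gene (0 of 2829). The split of reads between *Ly6c1* and *Ly6c2* is therefore uncertain, that of *Ly6a* less so, and the *Ly6e* values rest on reads of that gene alone as far as the annotated transcripts show.

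RefSeq promoter sequences (GRCm38.p6, the build of the files) were at hand for *Ly6c1* and *Ly6c2*, 2 of the 4 members. Within the 250 bases before each start, the best local match of the promoters was 142 identical bases in 196 aligned columns (72.4%), against 97.7% in the coding sequences. The matched stretch ends 2 bases before the annotated start of *Ly6c1* and 61 bases before that of *Ly6c2*, so the annotated starts are offset. It lies at chr15:75048839-75049021 for *Ly6c1* and chr15:75111998-75112186 for *Ly6c2*, both on the minus strand. Both are shown 5′ to 3′ in the direction of transcription, with bases that differ or are unpaired in capitals, because these paralogs moved together across the libraries described below.
Ly6c1: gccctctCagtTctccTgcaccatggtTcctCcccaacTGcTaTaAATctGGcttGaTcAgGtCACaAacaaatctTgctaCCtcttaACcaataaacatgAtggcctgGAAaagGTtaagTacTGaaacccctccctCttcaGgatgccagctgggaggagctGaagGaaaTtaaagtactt
Ly6c2: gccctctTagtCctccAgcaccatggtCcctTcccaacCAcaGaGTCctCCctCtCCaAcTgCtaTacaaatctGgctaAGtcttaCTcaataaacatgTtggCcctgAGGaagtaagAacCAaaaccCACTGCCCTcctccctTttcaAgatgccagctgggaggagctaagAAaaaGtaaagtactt
Short motifs were searched on both strands of the 250 bases. Neither promoter held the core of an interferon-stimulated response element (GAAANNGAA, in 7.13% of 32851 RefSeq promoters), a STAT-type GAS element (TTCNNNGAA, in 7.02%) or a T-box core (GGTGTGA, in 3.33%). The letters of a TATA box (TATAAA, in 12.4% of promoters) occurred in *Ly6c1* at -143 from its start and not in the window of *Ly6c2*. Whether this match works as a TATA box was not tested. This match overlaps no other, and letters that are absent from a window say nothing about the factors.

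The labels were checked against marker genes. *Cd4* was at 187 to 373 FPKM in every library. *Ifng* was at 614 to 802 FPKM in Th1 and at most 2.19 elsewhere, *Il4* at 97.6 to 129 in Th2 and at most 5.003 elsewhere, and *Il17a* at 335 to 347 in Th17 and at most 0.711 elsewhere. The naive marker *Ccr7* was highest in the naive libraries (327 and 310.4 FPKM). Markers of other cell types were present, most of them at low levels. The summed FPKM of 7 monocyte and macrophage markers, 6 of which reached 1 FPKM in some library, was 12.9 to 13.5 in naive, 85.7 to 104 in Th1, 21.5 to 31.5 in Th2 and 79.5 to 112 in Th17 libraries. *Ccr2*, a chemokine receptor that T cells can also express, made up most of that sum in Th1 and Th17 (62.5 to 95.6 FPKM), while the monocyte-defining *Csf1r* was at 3.20 to 3.84 in naive and at most 0.989 in effector libraries. The sums of 7 neutrophil, 6 B cell and 6 dendritic cell markers stayed at or below 8.83, 13.9 and 3.93 in every library, and the neutrophil marker *Retnlg* was at 0 throughout. *Mpo* was at 4.89, 2.46 and 3.02 FPKM in replicate 1 of Th1, Th2 and Th17, and at most 0.106 in replicate 2 of these groups. *Elane* was at 2.59, 3.71 and 3.60 in the same replicate 1 libraries and at 0 in replicate 2. The cause of this gap between replicates was not tested. The CD8 T cell and NK cell marker sum, nearly all *Cd8b1*, was 55.6 to 94.1 in naive and 9.12 to 14.3 in effector libraries. The other markers of that list did not share this level. In the naive libraries *Cd8a* was at 2.94 and 1.77 FPKM, *Eomes* at 0.497 and 0.572, and the rest at 0.209 or less. The part of other cell types in the results below was not tested, and in bulk libraries fewer cells of a type and less RNA per cell cannot be told apart.

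*Ly6a* was the most abundant member in effector cells. The naive libraries had 13.2 and 43.6 FPKM. It reached 1317 and 1435 in Th1 cells, 1261 and 954 in Th2 cells, and 1351 and 1434 in Th17 cells. All 6 effector libraries lay far above both naive libraries, and in effector libraries *Ly6a* ranked between 40 and 66 by FPKM among all genes, against 1558 and 4946 in the naive ones. The means were 28.4 ± 21.5 in naive, 1376 ± 82.9 in Th1, 1107 ± 217 in Th2 and 1392 ± 58.5 in Th17 (FPKM, SD, n = 2). The ranges of Th1 and Th17 overlapped, and the Th2 libraries were both lower than those of the other subsets.

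*Ly6c1* was nearly silent in naive cells, at 0.610 and 2.90 FPKM. The Th1 libraries had 692 and 715, the Th2 libraries 297 and 276, and the Th17 libraries 641 and 639. The order of the means was Th1 (704 ± 15.8), Th17 (640.0 ± 2.07), Th2 (286 ± 14.9) and naive (1.76 ± 1.62), and no groups overlapped. The naive values rest on few reads: the confidence intervals in the files imply 5.4 and 28.1 fragments, against 3871 to 12452 in effector libraries. In Th1 replicate 1 the interval was wide for the level, implying 3871 fragments at 692 FPKM where Th1 replicate 2 had 12078 at 715.

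*Ly6c2* had the same order at lower levels. Its FPKM was 0.403 and 2.28 in naive cells. The Th1 libraries had 198 and 281, the Th2 libraries 81.3 and 88.5, and the Th17 libraries 167 and 225. The naive libraries were again separate from all others, with 5.5 and 31 implied fragments, and both Th2 libraries were below those of Th1 and Th17, whose ranges overlapped. The means were 1.34 ± 1.33, 239.7 ± 58.9, 84.9 ± 5.15 and 196 ± 41.1 in naive, Th1, Th2 and Th17.

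*Ly6e* had the closest pair of naive values, 29.1 and 37.98 FPKM. The Th1 libraries had 543 and 676, the Th2 libraries 560 and 584, and the Th17 libraries 341 and 435. Here Th17 was the lowest effector group, and the Th2 libraries lay inside the range of Th1. The means were 33.5 ± 6.29, 609 ± 94.3, 572 ± 16.8 and 388 ± 66.2 in naive, Th1, Th2 and Th17, and 1013 or more fragments were implied in each library.

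**Figure D1:**
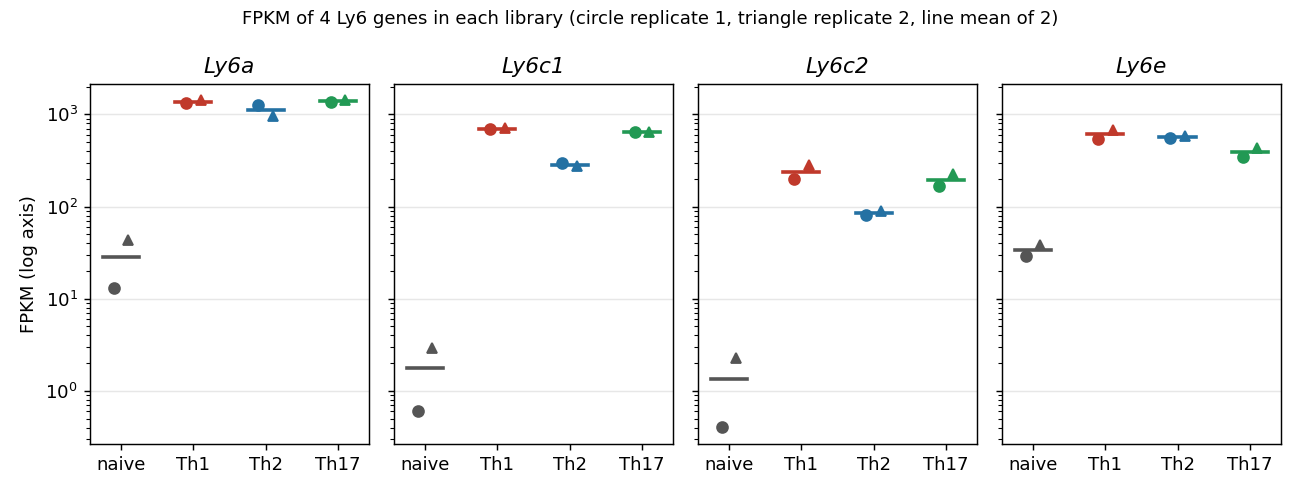
FPKM of each gene (vertical log axis) in the 2 libraries of each group, with a line at the group mean. The effector libraries lie between 81.3 and 1435 FPKM and the naive libraries between 0.403 and 43.6, and within a gene no effector library reaches down to a naive one.

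The naive libraries differed from each other more than the effector replicates did. Naive replicate 2 was above replicate 1 by 3.29-fold for *Ly6a*, 4.76-fold for *Ly6c1*, 5.65-fold for *Ly6c2* and 1.31-fold for *Ly6e*. On the log2(FPKM + 1) scale, gaps as large as those of *Ly6a*, *Ly6c1* and *Ly6c2* were found for 0.839%, 1.11% and 1.15% of the 11198 genes tested, and a gap like that of *Ly6e* for 15.2%. Of 28 genes listed as induced by interferon, 25 were also higher in naive replicate 2. Among those tested it was 22 of 24 (91.7%), against 50.8% of all genes tested. The *Cd8b1* level went the other way, at 90.5 FPKM in replicate 1 and 52.8 in replicate 2. Among effector libraries, the widest replicate gap of a member was 0.50 on the log2 scale (*Ly6c2* in Th1).

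All 4 genes were higher in Th1, Th2 and Th17 cells than in naive cells. Differences were tested with limma on log2(FPKM + 1), in 1 fit of all 8 libraries, over the 11198 genes whose FPKM averaged 1 or more, with Benjamini-Hochberg adjusted p-values and a threshold of 0.05. All 4 members passed the filter on low values, which their naive means also reach (1.34 or more). On this scale the change of a gene that is low in naive cells comes out smaller than on the FPKM scale. The 3 comparisons share the naive libraries and are not independent of each other.

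In Th1 against naive cells, *Ly6c1* had the largest difference, 8.13 on the log2 scale (SE 0.36, adjusted p = 2.33e-06), and its mean FPKM was 401-fold that of naive cells. *Ly6c2* followed at 6.79 (SE 0.39, adjusted p = 7.91e-06), a 179-fold ratio of mean FPKM. These ratios depend on the naive library: against naive replicate 1 or 2 alone they were 1154-fold and 242-fold for *Ly6c1*, and 595-fold and 105-fold for *Ly6c2*. *Ly6a* was higher by 5.77 (SE 0.47, adjusted p = 4.61e-05) and *Ly6e* by 4.15 (SE 0.19, adjusted p = 2.66e-06), with FPKM ratios of 48.4 (104 and 31.6 against either naive library) and 18.2 (21.0 and 16.04). The count of 4 higher of 4 compares with 33.8% of all genes tested, the 4 without overlap of the groups with 40.8%, and their median difference of 6.28 with -0.01 over all genes tested. The 4 genes thus differed from the median gene by the size of the change, while a call by itself was common. They were chosen with earlier results of these data known, and *Ly6c1* and *Ly6c2* share reads, so this is a description.

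In Th2 cells the differences from naive were 6.84 for *Ly6c1* (SE 0.36, adjusted p = 4.30e-06), 5.44 for *Ly6a* (SE 0.47, adjusted p = 5.08e-05), 5.32 for *Ly6c2* (SE 0.39, adjusted p = 2.15e-05) and 4.06 for *Ly6e* (SE 0.19, adjusted p = 2.38e-06). The ratios of mean FPKM were 163, 38.95, 63.4 and 17.1, and against naive replicate 1 or 2 alone 469 and 98.6 for *Ly6c1*, 83.6 and 25.4 for *Ly6a*, 211 and 37.3 for *Ly6c2* and 19.7 and 15.1 for *Ly6e*. Of all genes tested, 31.8% were higher in Th2 than in naive cells and 37.5% were higher without overlap of the groups, and the median over the members was 5.38 against -0.11.

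In Th17 cells *Ly6c1* was higher than in naive cells by 7.999 (SE 0.36, adjusted p = 2.27e-06), *Ly6c2* by 6.51 (SE 0.39, adjusted p = 8.41e-06), *Ly6a* by 5.79 (SE 0.47, adjusted p = 3.99e-05) and *Ly6e* by 3.49 (SE 0.19, adjusted p = 5.12e-06). The ratios of mean FPKM were 364, 146, 48.98 and 11.6, and against naive replicate 1 or 2 alone 1049 and 221 for *Ly6c1*, 487 and 86.2 for *Ly6c2*, 105 and 31.9 for *Ly6a* and 13.3 and 10.2 for *Ly6e*. Here 37.5% of all genes tested were higher, 45% were higher without overlap of the groups, and the median over the members was 6.15 against 0.08. With either naive library left out, all 12 differences kept their sign and remained past the threshold, at 3.31 or more.

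**Figure D2:**
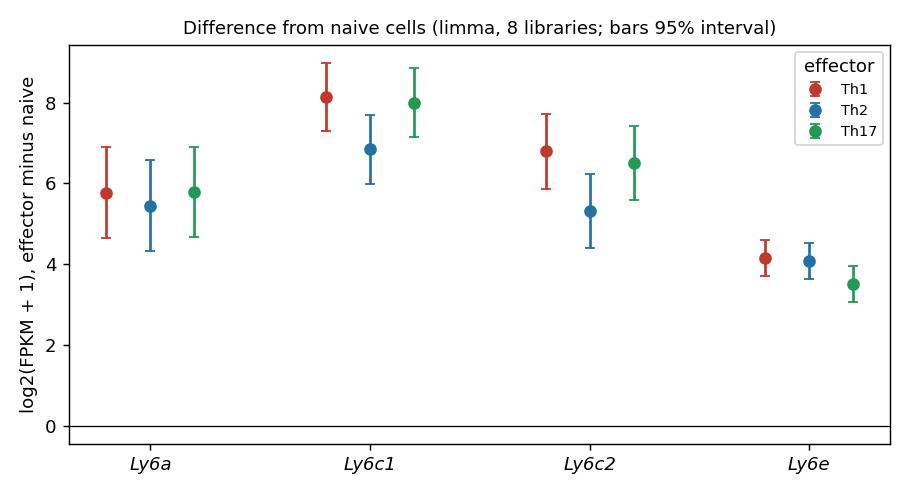
Difference of each effector group from naive cells in log2(FPKM + 1), with 95% intervals from limma, by gene. All 12 intervals lie above 0, and the differences run from 3.49 for *Ly6e* in Th17 to 8.13 for *Ly6c1* in Th1.

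Between the effector subsets, the genes fell into different patterns: *Ly6c1* and *Ly6c2* were lowest in Th2 cells, *Ly6e* was lowest in Th17 cells, and *Ly6a* passed no test. *Ly6c1* was higher in Th1 than in Th2 by 1.296 (SE 0.36, adjusted p = 0.0248) and higher in Th17 than in Th2 by 1.16 (SE 0.36, adjusted p = 0.0370). *Ly6c2* was higher in Th1 than in Th2 by 1.47 (SE 0.39, adjusted p = 0.0211) and higher in Th17 than in Th2 by 1.18 (SE 0.39, adjusted p = 0.0445). The FPKM ratio between these groups was thus of the order of 2 to 3 for both paralogs, small beside their distance from naive cells.

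*Ly6e* was lower in Th17 than in Th2 by a difference of -0.57 (SE 0.19, adjusted p = 0.0455), and higher in Th1 than in Th17 by 0.65 (SE 0.19, adjusted p = 0.0442). Between Th1 and Th2 its difference of 0.08 (adjusted p = 0.750, 95% interval -0.36 to 0.53) did not pass the test. The differences of *Ly6a* were 0.33 (interval -0.80 to 1.45) for Th1 minus Th2, 0.34 (-0.78 to 1.46) for Th17 minus Th2 and -0.02 (-1.14 to 1.10) for Th1 minus Th17, and each interval reaches past 1 on the log2 scale in at least 1 direction. Between Th1 and Th17, *Ly6c1* (0.14, interval -0.71 to 0.99) and *Ly6c2* (0.28, interval -0.64 to 1.20) did not pass the test either.

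In the subset comparisons 27.4% of all genes tested were called higher in Th1 than in Th2 and 16.9% lower, 31.7% higher in Th17 than in Th2 and 12% lower, and 9.17% higher in Th1 than in Th17 and 16% lower. Without overlap of the groups, 45.2% were higher in Th1 than in Th2, 52.3% higher and 22.5% lower in Th17 than in Th2, and 22.9% higher in Th1 than in Th17. These shares depend on the scaling between libraries: of the genes called between Th17 and Th2, 72.6% were higher in Th17, and 53.3% after each library was scaled to the same median. The 6 calls rest on few libraries. Each was lost when either library of the subsets compared was left out (adjusted p = 0.0579 to 0.213 in the limma fits), except that of *Ly6c2* between Th1 and Th2 without Th1 replicate 1 (adjusted p = 0.0437). The calls of *Ly6c1* and *Ly6c2* were also lost with a pseudocount of 0.1 (adjusted p = 0.106 and 0.141 for *Ly6c1*, 0.102 and 0.171 for *Ly6c2*, in the comparisons of Th1 and Th17 with Th2). Under voom on the implied fragments *Ly6c1* differed by 0.49 between Th1 and Th2 (adjusted p = 0.485) and by 1.27 between Th17 and Th2 (adjusted p = 0.0906). That setting takes *Ly6c1* at 3871 fragments in Th1 replicate 1 and 12078 in replicate 2, although its FPKM were 692 and 715. With the 6 effector libraries fitted without the naive ones, an alternative chosen after seeing the data, the same differences had smaller errors. The SE of *Ly6c1* was 0.098 in place of 0.36, and its adjusted p-values were 0.000366 for Th1 minus Th2 and 0.000837 for Th17 minus Th2. In that fit *Ly6c2* gave 0.00403 and 0.00918, *Ly6e* 0.0405 (Th17 minus Th2) and 0.0413 (Th1 minus Th17), and *Ly6a* 0.162 and 0.142. Of all genes, 44.0% and 43.4% were called in either direction in the comparisons of Th1 and Th17 with Th2, and 24.6% in Th1 minus Th17.

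**Figure D3:**
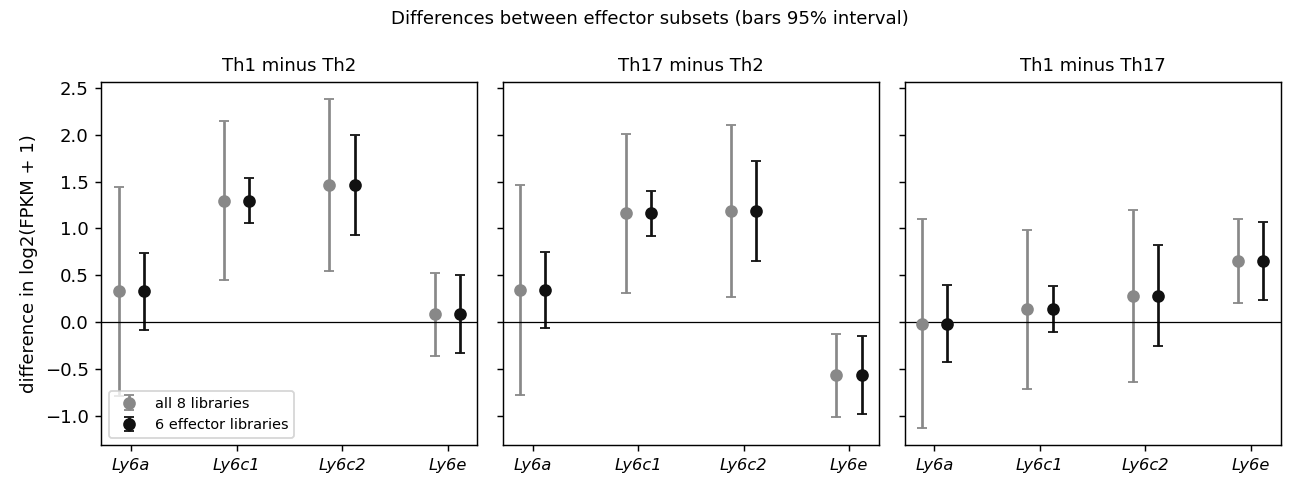
Differences between subsets in log2(FPKM + 1) with 95% intervals, by gene, from the fit of all 8 libraries (grey) and of the 6 effector libraries (black). The points are the same in both fits. The intervals of *Ly6c1* and *Ly6c2* exclude 0 in both comparisons with Th2, those of *Ly6e* in both comparisons with Th17, and those of *Ly6a* include 0 in all 3.

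The balance of the paralogs was fairly even across the effector groups. The ratio of *Ly6c1* to *Ly6c2* FPKM was 3.50 and 2.54 in the Th1 libraries, 3.65 and 3.11 in the Th2 libraries and 3.84 and 2.83 in the Th17 libraries. It was 1.51 and 1.27 in the naive libraries, where both rest on few fragments. In each effector group replicate 1 had the higher ratio, and the groups overlapped. Summing the pair gives a quantity less affected by reads shared between the 2 paralogs. It does not remove reads shared with *Ly6a*, in which 195 of the 1764 words of *Ly6c1* also occur, and their effect was not tested. The summed FPKM was 1.01 and 5.18 in naive cells. The Th1 libraries had sums of 890.4 and 996, the Th2 libraries 378 and 364, and the Th17 libraries 809 and 864. Across the 6 effector libraries Pearson's r on the log2(FPKM + 1) scale was 0.95 between *Ly6c1* and *Ly6c2*, which share reads, and -0.27 to -0.07 between *Ly6e* and the other members. These are descriptions of 6 libraries in 3 groups.

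In effector cells the members were the most abundant genes of their neighborhood by FPKM. In the naive libraries *4930572J05Rik*, at 24.7 and 22.4 FPKM, was above *Ly6c1* and *Ly6c2*. Of 28 genes within 500 kb of the span of the members, 20 stayed under 1 FPKM in every library and 6 reached the mean FPKM needed for the test. Beside the 4 members these were *Ly6i*, a further Ly6 gene between *Ly6e* and *Ly6a*, and *4930572J05Rik*. *Ly6i* was at 0.032 and 0.794 FPKM in naive cells. The Th1 libraries had 9.20 and 24.2, the Th2 libraries 8.07 and 14.4, and the Th17 libraries 10.0 and 22.9. Its naive mean of 0.413 is under the filter, so it was tested only because of its effector levels and had to differ. The differences, given as a description, were 3.56 in Th1, 3.12 in Th2 and 3.57 in Th17 (SE 0.56). *Ly6i* shares some 50-base words with *Ly6a* (31 of the 1297 of *Ly6a*), and the effect of such reads on its low values was not tested. *4930572J05Rik*, at -274 kb from *Ly6a* (lower-coordinate ends), fell in Th1 by -0.72 (adjusted p = 0.00716) and in Th2 by -0.76 (adjusted p = 0.00530), and did not pass the test in Th17 (-0.28, adjusted p = 0.170).

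**Figure D4:**
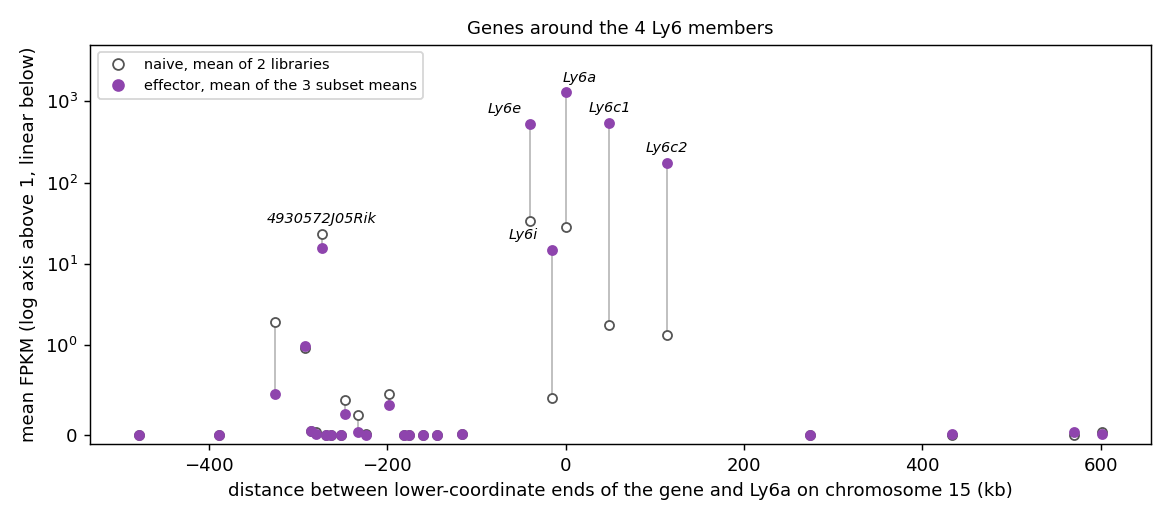
Mean FPKM of the 28 genes around the members (log axis above 1, linear below) against the distance of each gene's lower-coordinate end from that of *Ly6a*, in naive cells (open) and as the mean of the 3 effector group means (filled). The Ly6 genes from *Ly6e* to *Ly6c2* are higher in effector cells, and the other genes of the window lie near 0 apart from *4930572J05Rik*, *Arc* and *Jrk*.

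The rest of the Ly6 and uPAR family was mostly silent. Of 39 other family genes listed, 31 were in the files and 4 were tested. Besides *Ly6i*, *Plaur*, the urokinase receptor, was at 0.936 FPKM on average in naive cells and passed the filter through its effector levels, with differences of 3.08 in Th17 and 0.58 in Th2, and was not called in Th1. *Lypd6b* fell in all 3 comparisons with naive cells, by -1.87, -3.57 and -3.47 in Th1, Th2 and Th17, from 12.2 and 12.02 FPKM in naive cells. *Ly6g5b* fell in Th2 (-1.33) and Th17 (-1.14). Both were under 1 FPKM in the Th2 and Th17 libraries and passed the filter through the naive and Th1 ones. The tested genes outside the chromosome 15 group went in both directions. The filter partly set these directions, so none is read for the family.

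Genes that build or carry the GPI anchor were called in both directions. Of 28 GPI anchor assembly genes tested, 5 were higher and 8 lower in Th1, 6 higher and 12 lower in Th2, and 6 higher and 10 lower in Th17, with medians of 0.06, -0.25 and 0.00. Over all genes tested, 33.8% were higher and 33.5% lower in Th1, 31.8% higher and 38.7% lower in Th2, and 37.5% higher and 29.8% lower in Th17, so the shares of lower calls in this list (28.6%, 42.9% and 35.7%) were near those of all genes, and the shares of higher calls (17.9%, 21.4% and 21.4%) below them. Much larger than the others was the difference of *Pigz*, a mannosyltransferase of the pathway, which went from 0.088 and 0.089 FPKM in naive to 12.3 to 34.0 in effector libraries (differences of 4.09, 3.76 and 4.95 in Th1, Th2 and Th17). *Pigz*, and *Prnp* and *Sema7a* below, had naive means under 1 FPKM (0.088, 0.817 and 0.178) and were tested only because of their effector levels, so their differences are a description. Of 10 other GPI-anchored surface proteins of T cells, 3, 4 and 3 were higher in Th1, Th2 and Th17 (30% to 40%). Lower were 5, 4 and 4 (50%, 40% and 40%, against 33.5%, 38.7% and 29.8% of all genes tested). *Art2b* and *Nt5e* passed the filter mainly through the naive libraries, with means of 3.98 and 2.33 FPKM there and 0.174 and 0.372 in Th1. The filter thus partly set the lower counts, which are a description. *Prnp*, the prion protein gene, had the largest differences (7.10 in Th1, 5.46 in Th2, 5.12 in Th17), and *Sema7a*, a semaphorin, had 3.69, 2.52 and 2.83. *Cd55*, a complement regulator, fell by -2.74 in Th1, -2.24 in Th2 and -2.21 in Th17. *Cd24a* rose in Th2 (3.60) and Th17 (4.13) and was not called in Th1.

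Most genes listed as induced by interferons were lower in effector than in naive cells. Of 24 tested, 4 were higher and 14 lower in Th1, 1 higher and 23 lower in Th2, and 0 higher and 21 lower in Th17, with medians of -0.78, -2.76 and -1.76 where the members had 6.28, 5.38 and 6.15. Lower calls over all genes tested were 33.5%, 38.7% and 29.8%. *Rtp4* fell by -4.47, -4.57 and -4.38, and *Irf7*, a regulator of type I interferon genes, by -3.12, -4.33 and -3.90 in Th1, Th2 and Th17. *Rtp4*, *Ifit1* and *Ifit3* were at no more than 0.340, 0.581 and 0.152 FPKM in any effector library. They passed the filter through the naive libraries, so their lower values are a description, and the counts of lower calls include such genes. The 4 genes that rose in Th1, named after their values were seen, were *Isg20* (1.37), *Gbp2* (0.87), *Gbp3* (1.27) and *Igtp* (0.54), the last 3 of them interferon-induced GTPases, and *Isg20* was also the gene that rose in Th2 (1.298). The limma count of 0 higher in Th17 was 1 at an unadjusted p under 0.05 and 0 with voom. Lower calls outnumbered higher ones also under median scaling and quantile normalization.

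Between subsets, most genes of the same list were called higher in Th1. It had 19 genes higher and 0 lower in Th1 against Th2, 16 and 0 in Th1 against Th17, and 12 and 2 in Th17 against Th2, with medians of 1.60, 0.91 and 0.57. Over all genes tested the medians were 0.11, -0.08 and 0.18, and the shares called higher and lower were 27.4% and 16.9%, 9.17% and 16%, and 31.7% and 12%. In limma 0 were lower than in Th2 or in Th17 at an unadjusted p under 0.05 too, and 0 with voom. *Ifi203* differed most between Th1 and Th2 (4.68, adjusted p = 3.68e-06), *Zbp1*, a nucleic acid sensor, differed by 3.41, and *Gbp3* was higher in Th17 than in Th2 by 2.35 (adjusted p = 0.000119). *Ly6c1* and *Ly6c2* were likewise higher in Th1 and in Th17 than in Th2 but, unlike the 16 listed genes, were not called between Th1 and Th17, and whether the members and the list differ in this was not tested. The 16 calls fell to 6 to 10 with any 1 of these Th1 or Th17 libraries left out.

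Of 11 interferon receptor and signaling genes, 1 was higher and 7 lower in Th1, 2 higher and 8 lower in Th2, and 1 higher and 6 lower in Th17. As shares, 9.09%, 18.2% and 9.09% were higher and 63.6%, 72.7% and 54.5% lower, against 33.8%, 31.8% and 37.5% higher and 33.5%, 38.7% and 29.8% lower over all genes tested. *Ifngr1*, which encodes the ligand-binding chain of the interferon gamma receptor, rose in Th1 (1.92, adjusted p = 2.24e-05), and *Ifngr2*, its signaling chain, fell there by -4.10 (adjusted p = 3.42e-07). *Irf1* fell by -3.07 in Th2 and -3.41 in Th17. *Jak2* rose in Th2 (1.61) and in Th17 (1.03), and *Ifnar2* rose in Th2 (0.47).

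**Figure D5:**
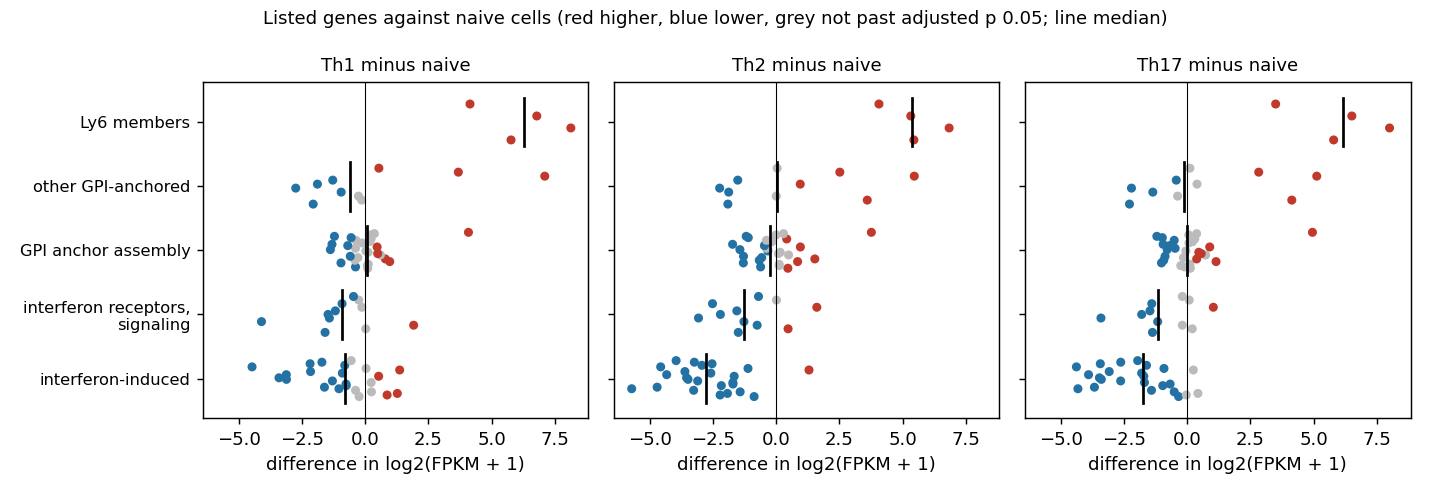
Difference from naive cells in log2(FPKM + 1) for each tested gene of 5 lists, 1 panel per effector group, with a line at the list median. The 4 Ly6 members lie to the right of 3.4 in every panel, the GPI lists are spread on both sides of 0, and the interferon-induced genes lie mostly to the left of it.

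By Pearson's r of log2(FPKM + 1) over the 8 libraries, the genes most like *Ly6a* were *Coasy*, *Cltc*, *Kcnk7*, *Il2rb* and *5330426P16Rik* (r = 0.993 to 0.997). Those most like *Ly6c1* were *2610318N02Rik*, *Ccdc21*, *Pask*, *Raph1* and *Clspn* (r = 0.997 to 0.999), and *2610318N02Rik*, *Ccdc21* and *Pask* were also among the 5 for *Ly6c2*, with *Fancd2* and *Spata24*. *Ly6e* was nearest to *Gpld1*, *Galns*, *Kif14*, *Ppp3cc* and *Pif1* (r = 0.997 to 0.9996). Such values were common, since between 720 and 823 of the genes tested reached r = 0.95 with each member, over 8 libraries that share the step from naive to effector cells. Similar shape did not mean similar size: *Coasy* went from 7.84 FPKM in naive replicate 1 to 14.5 in Th1 replicate 1, whereas *Ly6a* went from 13.2 to 1317.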

How the data were processed

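RNA of naive, Th1, Th2 and Th17 cells was sequenced in 2 libraries per group, 8 in all. The authors aligned 50-base reads to mm10 with Bowtie 0.12.8 and TopHat 1.3.2 (versions from the submitters' processing notes) and deposited FPKM per gene with confidence intervals, computed with Cufflinks 2.0.2. The annotation is not given in the sources used here. The labels name a stranded library kit and the methods an unstranded one, so reads of overlapping genes on opposite strands could be shared.

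The 23746 entries of each library were summed per symbol (23284 genes). Values were tested as log2(FPKM + 1) with limma 3.58.1 in R 4.3.3 (group means, mean-variance trend, two-sided), over the 11198 genes whose FPKM averaged 1 or more, with Benjamini-Hochberg adjustment. The fragments implied by the deposited confidence intervals of FPKM, which do not cover the spread between replicates, summed to 14463466 to 21058286 per library. They are not read counts. *Ly6c1* in the Th1 libraries implied 3871 and 12078 fragments at 692 and 715 FPKM, with totals of 20346892 and 20359025. Sequences come from GENCODE vM21 transcripts and RefSeq promoters, compared with Biopython 1.88. Coding sequences are the longest among transcripts tagged as principal. Tables and plots used Python 3.11.15, pandas 2.3.3, numpy 2.4.6 and matplotlib 3.10.9.

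Some listed genes are not reported here. The members and gene lists were chosen with earlier results of these data known. By rule, the text names the members, up to 4 genes per list and comparison with the largest called differences, cell type markers, genes within 500 kb of the members on chromosome 15, and the 5 genes most correlated with each member. The alternatives tried were no filter or a mean FPKM of 5, a pseudocount of 0.1, median scaling, quantile normalization, only the groups compared, no trend, the replicate block, the largest entry of a symbol, each library left out, *Ly6c1* and *Ly6c2* summed, and voom on implied fragments. A fit of only the effector libraries was added after seeing the data.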

Additional observations from a re-analysis of the deposited data

Results flagged for a closer look

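Differences of a member between effector subsets, 6 in all, were picked out because a test of the difference between the groups passed the threshold (limma, 8 libraries, Benjamini-Hochberg adjustment). *Ly6c1* differed by 1.296 between Th1 and Th2 and by 1.16 between Th17 and Th2. *Ly6c2* differed by 1.47 and 1.18 in the same comparisons. *Ly6e* differed by -0.57 for Th17 minus Th2 and by 0.65 for Th1 minus Th17. In each of these the 2 libraries of one group lay on one side of those of the other. Such separation was common: 45.2% of all genes tested were separate and higher in Th1 than in Th2. It was 52.3% higher and 22.5% lower for Th17 against Th2, and 22.9% higher for Th1 against Th17. Calls in the same directions were made for 27.4%, 31.7%, 12% and 9.17% of all genes tested.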

How the results depend on the processing

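The 12 differences from naive cells kept their direction and stayed past the threshold under every alternative run, at 3.40 to 9.33 on the log2 scale, and with each library left out at 3.31 to 8.77. The calls between subsets were less stable, and the cause was not tested unless named. With a pseudocount of 0.1, *Ly6c1* gave 1.299 (Th1 minus Th2, adjusted p = 0.106) and 1.16 (Th17 minus Th2, 0.141), and *Ly6c2* 1.48 (0.102) and 1.19 (0.171), all below the threshold. With no filter on low values the differences are unchanged by construction and more genes were tested (18125), and the calls of *Ly6c1* (1.296 and 1.16, adjusted p = 0.0522 and 0.0706), *Ly6c2* for Th17 minus Th2 (1.18, 0.0835) and *Ly6e* (-0.57 for Th17 minus Th2, 0.0739, and 0.65 for Th1 minus Th17, 0.0684) were lost. *Ly6e* for Th1 minus Th17 was also lost with a mean FPKM of at least 5 (0.65, 0.0505), with quantile normalization (0.58, 0.0554) and with only the groups compared (0.65, 0.0781). Median scaling gave 0.98 (*Ly6c1*, 0.0692) and 1.00 (*Ly6c2*, 0.0767) for Th17 minus Th2. With the paralogs summed this difference was 1.17 (0.0747). With voom on implied fragments *Ly6c1* gave 0.49 (Th1 minus Th2, 0.485) and 1.27 (Th17 minus Th2, 0.0906), and its uncalled Th1 minus Th17 value turned to -0.78. The values with Th1 use the implied count of Th1 replicate 1, 3871 against 12078 in replicate 2 at similar FPKM. Other uncalled values changed sign: *Ly6e* for Th1 minus Th2 became -0.013 (median scaling) and -0.037 (quantile normalization), and *Ly6a* for Th1 minus Th17 became 0.072 (median scaling). Median scaling removed a shift of the median gene of 0.18 between Th17 and Th2 and 0.11 between Th1 and Th2.

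With each library left out, where the remaining library of a group is assumed to vary like the other groups, *Ly6c1* ranged from 1.24 to 1.35 (Th1 minus Th2) and 1.11 to 1.21 (Th17 minus Th2), *Ly6c2* from 1.21 to 1.72 and 0.97 to 1.40, and *Ly6e* from -0.74 to -0.40 (Th17 minus Th2), 0.48 to 0.83 (Th1 minus Th17) and -0.076 to 0.24 (Th1 minus Th2). *Ly6a* for Th1 minus Th17 ranged from -0.079 to 0.044. The interferon-induced genes called between Th1 and Th17 numbered 6 to 10 in place of 16. The other Ly6 and uPAR genes called in Th1, Th2 and Th17 against naive cells numbered 2, 4 and 4. Without a filter they were 5 and 7 in Th1 and Th2, with a mean FPKM of at least 5 there was 1 in each, and with quantile normalization 4 in Th1. Other list counts between subsets were recomputed only under median scaling, quantile normalization and the replicate block. The GPI anchor assembly genes called higher and lower in Th17 against Th2 were 10 and 1. They became 3 and 3 with median scaling, 2 and 3 with quantile normalization, and 11 and 3 with the block.

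With the replicate number as a block, no call of a member changed (*Ly6c1* for Th1 minus Th2, 1.296, adjusted p = 0.0193, and *Ly6e* for Th1 minus Th17, 0.65, 0.00543). The replicate differences of 2 groups correlated at 0.138 to 0.294 over the 6 pairs of groups, and with 2 numbers the libraries are taken to share only a number. The myeloid markers *Mpo* and *Elane* were nonetheless higher in replicate 1 of every effector group. Under quantile normalization 44.2% of the genes called between Th17 and naive cells were higher in Th17, in place of 55.7%, 50.9% in place of 61.8% between Th1 and Th2, and 49.7% in place of 36.5% between Th1 and Th17. The low levels of *Ly6c1* and *Ly6c2* in naive cells limit the precision of their fold changes.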
